A study of Blattella germanica with 16 samples.

Results

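The contrast described here sets dsInR1 against dsInR2 in the fat body of Blattella germanica, the German cockroach. Both are double-stranded RNAs injected into females to knock down 1 insulin receptor each by RNA interference. The 4 dsInR1 and the 4 dsInR2 libraries were used, 8 of the 16 libraries of the series, with all 28676 genes of the expression table. The libraries of dsInR3 and of the control dsRNA (dsMock) did not enter the main test of this contrast. They serve as levels measured in the same way and enter an alternative fit over all 16 libraries. That fit also gave the comparisons of both groups with dsMock. Females of both groups, like those of dsMock, received 2 injections of 2 µg dsRNA, 7 days apart, and lived at 30 °C and 70% humidity. The labels date the procedure in 2 ways. The design text counts from the start of ootheca carrying. It has the egg case taken off on day 12 and tissue collected on day 5 of the next cycle. The protocol for treatment dates the injections 12 and 5 days ahead of extraction. Libraries were stranded and made from polyadenylated RNA. How many animals went into a library is not stated, so p-values describe the variation between these libraries, which may be technical.

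The fat body of insects combines functions of liver and adipose tissue: it stores lipid and glycogen, secretes most proteins of the hemolymph and, in reproducing females, makes yolk precursors. Insulin-like peptides act through receptor tyrosine kinases, and the pathway is known to promote nutrient storage, growth and protein synthesis, in part by restraining FoxO transcription factors and by feeding into the TOR kinase. The contrast asks how the fat body transcriptome under depletion of InR1 differs from that under depletion of InR2.

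The 8 libraries held between 16385925 and 23688522 reads assigned to genes. They separated by group along the first principal component of log2 CPM (CPM, reads per 1000000 of the TMM-scaled library total), which carried 44.8% of the variance. Pearson correlations of log2 CPM were 0.924 to 0.951 within dsInR1, 0.911 to 0.941 within dsInR2 and 0.851 to 0.898 between the groups. The second component, with 13.7%, spread dsInR2 libraries 4 and 7 from dsInR2 libraries 1 and 8. The SD of log2 CPM was larger in dsInR2 than in dsInR1 for 60.1% of the tested genes, with a median SD of 0.292 in dsInR1 and 0.354 in dsInR2. Products that the fat body is known to secrete, apolipophorin and the Cr-PI storage proteins, were abundant in every library. No pair of libraries agreed within counting noise.

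**Figure D1:**
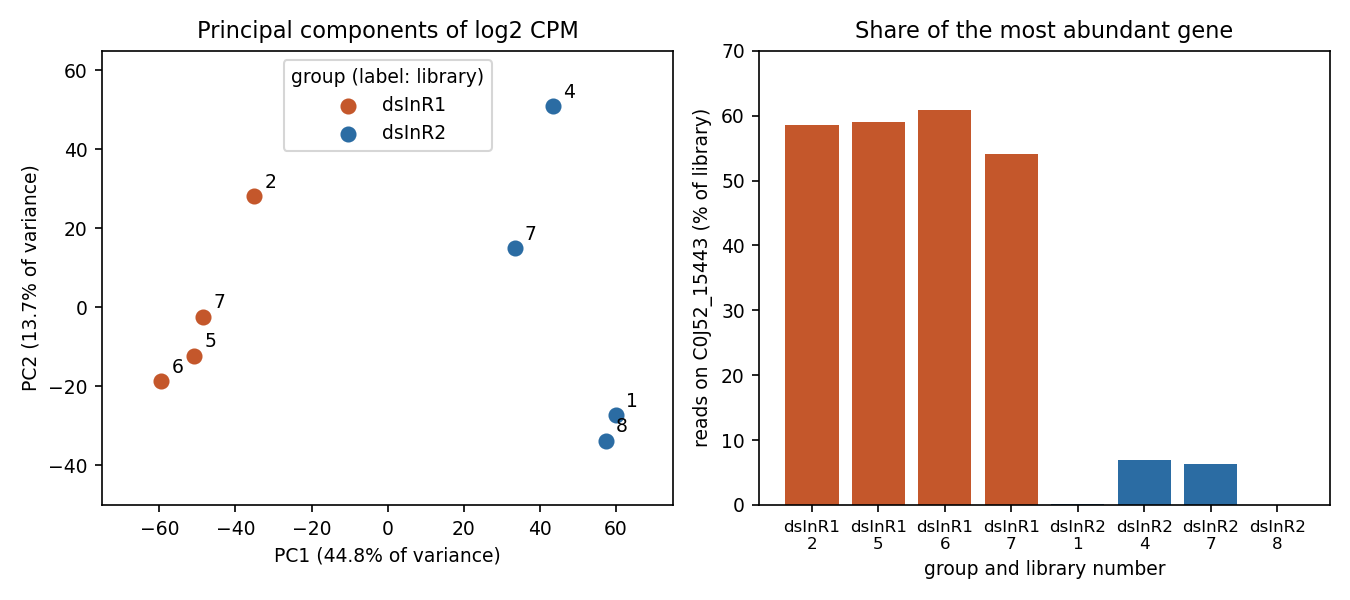
Left, first and second principal component of log2 CPM for the 4 dsInR1 and 4 dsInR2 libraries, labelled with their library numbers; the groups separate along the first axis, and dsInR2 libraries 4 and 7 lie apart from dsInR2 libraries 1 and 8 along the second. Right, percent of each library's reads on C0J52_15443, which is 54.1 to 60.9% in dsInR1 and at most 6.99% in dsInR2.

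Of 9918 genes with enough reads to be tested, 1304 were higher and 1335 lower in dsInR1 than in dsInR2 (edgeR quasi-likelihood test, Benjamini-Hochberg adjusted p under 0.05), which is 26.6% of the tested genes. Against a required difference of 2-fold (glmTreat), 167 genes (1.68%) were higher and 158 (1.59%) lower. The share called was 13.1% in the direction of dsInR1 and 13.5% in that of dsInR2. Among called genes, 180 were at least 4-fold higher and 230 at least 4-fold lower in dsInR1. The 4 libraries of the groups did not overlap for 2944 genes, 29.7% of those tested, and 2401 of these were called. Without dsInR1 library 6 the counts were 854 higher and 825 lower, and without dsInR1 library 5 they were 873 and 882. The median log2 fold change of all tested genes was -0.03. Throughout, fold changes are dsInR1 over dsInR2, adjusted p-values come from this edgeR test over all tested genes, and SE is the standard error of the log2 fold change.

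In a fit over all 16 libraries, 0 of 10536 genes passed between dsInR1 and dsMock and 3402 passed between dsInR2 and dsMock (edgeR, adjusted p under 0.05), 0.0% and 32.3% of the genes tested. At an unadjusted p under 0.05 the counts were 347 and 4473. These comparisons share the dsMock libraries. Below, higher and lower in dsInR1 are relative to dsInR2 and do not state a change from dsMock.

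Among the annotated products, 1 gene is named an insulin-like receptor, InR (C0J52_14014, contig PYGN01000591.1, positions 866355 to 953667 of Bger_1.1). Its level was 50.5, 55.3, 54.9 and 49.2 CPM in dsInR1, against 6.09, 3.57, 8.26 and 6.71 CPM in dsInR2. The groups did not overlap. InR was 8.51-fold higher in dsInR1 (log2 fold change 3.09, SE 0.24, adjusted p = 0.00027). The exact two-sided permutation test over the 8 libraries gave p = 0.0286, the smallest it allows. Non-overlap alone fixes this p, and it held for 29.7% of all tested genes, so the p adds nothing further. Scaled over all 16 libraries, InR stood at 48.9 ± 2.62 CPM in dsInR1, 5.9 ± 1.86 CPM in dsInR2, 38.5 ± 6.41 CPM in dsInR3 and 52.8 ± 1.7 CPM in dsMock (SD, n = 4 each). The annotation does not say which of the 3 receptors this gene is. Its mean was lowest in dsInR2 among the 4 groups, and the knockdown in dsInR1 was not checked, since no gene is named as its target.

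**Figure D2:**
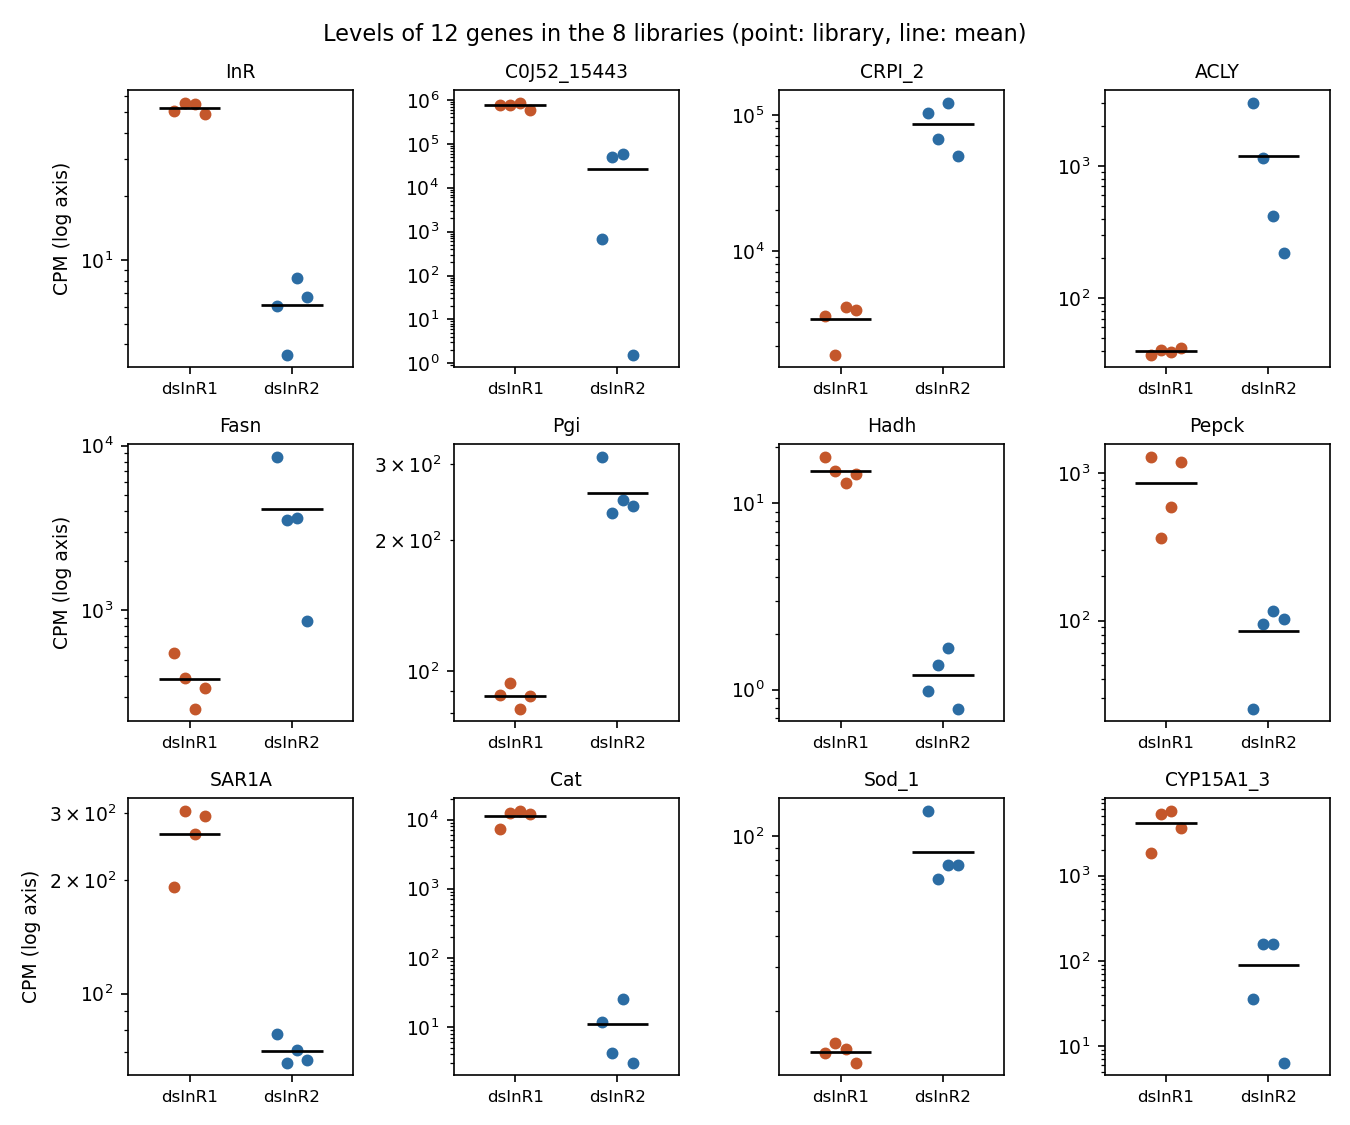
Levels of 12 genes in CPM on log axes that differ between panels, with a point for each library, dsInR1 on the left and dsInR2 on the right, and a line at the group mean. In each panel the libraries of the groups do not overlap, and dsInR2 libraries spread widely for C0J52_15443, ACLY, Fasn and CYP15A1_3.

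Of 17 tested insulin and TOR signalling genes, the receptor included, 2 were higher in dsInR1 (InR and IGFBP) and 3 lower, and their median log2 fold change was -0.03. The share called was 29.4%, near the 26.6% of all tested genes. The lower members numbered 1 without dsInR1 libraries 2, 6 or 7 or dsInR2 library 7, 2 without dsInR1 library 5 or dsInR2 libraries 4 or 8, and 3 members were higher without dsInR2 library 8. IGFBP, a secreted protein related to vertebrate binding proteins of insulin-like growth factors, had 599, 491, 491 and 624 CPM in dsInR1, against 300.0, 143, 292 and 284 CPM in dsInR2 (log2 fold change 1.11, SE 0.25, adjusted p = 0.013). The lower calls were small: LAMTOR2, a subunit of the Ragulator complex that anchors TOR signalling at lysosomes, at -0.52 (SE 0.13, adjusted p = 0.018), and 2 adjacent entries for ribosomal protein S6 kinase, RPS6KB1_1 at -0.56 (adjusted p = 0.029) and Rps6kb1_0 at -0.60 (adjusted p = 0.03). Each of these was lost when certain libraries were left out, with LAMTOR2 at an adjusted p of 0.0619 without dsInR1 library 5. The call of RPS6KB1_1 was lost without dsInR1 libraries 2, 6 or 7 or dsInR2 libraries 7 or 8, with adjusted p up to 0.0887, and that of Rps6kb1_0 without dsInR1 libraries 2, 6 or 7 or dsInR2 libraries 4 or 7, with adjusted p up to 0.0838. The kinase Mtor_1, its partners RPTOR, Rictor and mlst8 and its activator Rheb, named after their values were seen, did not pass, with log2 fold changes from -0.06 for RPTOR to 0.35 for Rheb.

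The largest difference in the make-up of the libraries lay in 1 transcript. C0J52_15443, annotated as a hypothetical protein on PYGN01001172.1 at positions 18821 to 36073, took 58.6, 59.0, 60.9 and 54.1% of all reads in dsInR1, against 0.0822, 6.99, 6.38 and 0.000227% in dsInR2. In read counts, the dsInR2 libraries ranged from 42 in library 8 to 1510260 in library 7. The groups did not overlap, as for 29.7% of all tested genes. That alone fixes the exact two-sided permutation p at 0.0286, the smallest it allows, so this p adds nothing further. The spread within dsInR2 was so wide that the gene did not pass in edgeR (log2 fold change 4.78, SE 2.06, adjusted p = 0.12). It passed in DESeq2 (adjusted p = 0.00204) and in the fit over all 16 libraries (0.0311). In dsMock it took 55.1% of the reads. Because counts are relative, a transcript of this size lowers the reads left for all other genes in dsInR1, and the TMM factors of 0.72 to 0.899 in dsInR1 and 1.11 to 1.44 in dsInR2 adjust for that. In bulk RNA, fewer cells of a type and less RNA per cell cannot be told apart.

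A second abundant transcript without a product name, C0J52_05895, had 15600, 19200, 21800 and 16700 CPM in dsInR1, against 309, 1270, 921 and 164 CPM in dsInR2 (log2 fold change 4.78, SE 0.68, adjusted p = 0.0019). C0J52_10194, also unnamed, had 13200, 13700, 12400 and 10100 CPM in dsInR1, against 4150, 7320, 7330 and 4510 CPM in dsInR2 (1.08, SE 0.31, adjusted p = 0.03), without overlap. Its call was lost without dsInR1 libraries 2, 5 or 6 and without dsInR2 libraries 1 or 8, with adjusted p up to 0.0854.

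Named hemolymph and storage proteins were lower in dsInR1 as far as they were called: 6 of 11 tested members were lower, 0 were higher, and the median log2 fold change was -2.16. In this list 54.5% were called, against 26.6% of all tested genes. Without dsInR2 library 7, 2 were higher, and 1 without dsInR2 library 8. The Cr-PI allergens, storage proteins related to hexamerins and known from cockroaches, supplied 4 of the 6 lower members. Of 5 tested Cr-PI genes, 4 lie side by side on PYGN01001206.1 between positions 426997 and 477512 and all 4 were lower in dsInR1. CRPI_2 ends at 440764 and CRPI_1 starts at 441223, and CRPI_3 ends at 476102 and CRPI_4 starts at 476334. Whether these entries are 4 separate genes was not tested. CRPI_2 had 3320, 1740, 3870 and 3680 CPM in dsInR1, against 104000, 66200, 122000 and 50000 CPM in dsInR2, a 27.1-fold difference (log2 fold change -4.76, SE 0.54, adjusted p = 0.00075). CRPI_1 was lower by a log2 fold change of -4.44 (adjusted p = 0.0003), CRPI_3 by -2.59 (0.0037) and CRPI_4 by -2.55 (0.0014). CRPI_0, which lies on another contig beside the hexamerin gene HEXA, did not pass (0.65, adjusted p = 0.48) but did without dsInR2 library 7 (0.0429). Similar sequences within this family may share reads, and how such reads were handled is not stated.

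Other carriers of the hemolymph were less uniform. TRF, the iron carrier transferrin, named after its values were seen, had 980, 280, 103 and 104 CPM in dsInR1, against 29500, 744, 7330 and 29500 CPM in dsInR2 (log2 fold change -5.51, SE 1.29, adjusted p = 0.014). Library 4 of dsInR2 lay below library 2 of dsInR1, so the groups overlapped, and without dsInR1 library 2 the log2 fold change was -6.69. APLP, the lipid carrier apolipophorin, had 35300, 30800, 34900 and 23600 CPM in dsInR1, against 66300, 61000, 68600 and 81500 CPM in dsInR2 (-1.15, SE 0.37, adjusted p = 0.048). The groups did not overlap, but the call was lost whichever library was left out, with adjusted p between 0.0581 and 0.136. The hexamerin HEXA, named after its values were seen, went the other way without passing, at 268, 360, 440 and 269 CPM in dsInR1, against 18.8, 41.5, 123 and 1.85 CPM in dsInR2 (log2 fold change 2.85, adjusted p = 0.053). HEXA passed as higher under DESeq2 (0.0185), limma-voom (0.0342), with all 16 libraries in the fit (0.0109), with at least 10 CPM required (0.0387) and without dsInR2 libraries 7 (0.0166, at 4.01) or 8 (0.0255).

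Of 22 tested members of the list of fatty acid synthesis and its NADPH supply, 7 were lower in dsInR1, 3 were higher and 12 did not pass. The 45.5% called compares with 26.6% of all tested genes. The higher members alone were near the 13.1% called higher over all tested genes. The median of the 22 log2 fold changes was -0.80. That median lay between -0.93 and 0.02 when single libraries were left out, and was 0.02 without dsInR2 library 1 and -0.16 with all 16 libraries in the fit, while the count of lower members stayed between 6 and 8 with single libraries left out. With at least 10 CPM required in 4 libraries, 1 was higher. ACLY, the ATP-citrate synthase that makes cytosolic acetyl-CoA, had 37.4, 40.5, 39.4 and 42.2 CPM in dsInR1, against 2990, 1140, 417 and 221 CPM in dsInR2. The dsInR1 libraries were nearly alike while those of dsInR2 were spread widely, and the log2 fold change was -4.90 (SE 0.79, adjusted p = 0.0032) and -3.89 without dsInR2 library 1.

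Enzymes of the next steps of the pathway were lower. Apart from ZW, D11DS_0, DGAT1 and C0J52_12881, the genes of this paragraph were named after their values were seen. ACAC, acetyl-CoA carboxylase, was at -3.64 (SE 0.61, adjusted p = 0.0037), and at -4.30 without dsInR1 library 2. Fasn, fatty acid synthase, had 552, 392, 254 and 338 CPM in dsInR1, against 8520, 3530, 3650 and 865 CPM in dsInR2 (-3.43, SE 0.63, adjusted p = 0.0052), and its log2 fold change was -2.80 without dsInR2 library 1. The groups did not overlap for either enzyme. Among the sources of NADPH, ZW (glucose-6-phosphate dehydrogenase) was at -3.18 (adjusted p = 0.0023), PGD (6-phosphogluconate dehydrogenase) at -1.81 (0.0039) and ME1_1 (malic enzyme) at -2.61 (0.0086). ME1_1 groups overlapped, since dsInR2 library 8 had 308 CPM where the other dsInR2 libraries had 1960 to 2170. The elongase ELOVL6 (-2.09, adjusted p = 0.024) was lost without dsInR1 libraries 5, 6 or 7, with adjusted p up to 0.0737, and under limma-voom (0.0509), and was at -1.42 without dsInR2 library 7. The desaturase D11DS_0 did not pass (-2.05, adjusted p = 0.069) but did under DESeq2 (0.0074), with all 16 libraries in the fit (0.0386), with at least 10 CPM required (0.0491) and without dsInR2 library 8 (0.0142). In the other direction stood DGAT1, which makes triacylglycerol from diacylglycerol, at 1.31 (SE 0.27, adjusted p = 0.0087), and the low elongase entry C0J52_12881 at 2.0 (adjusted p = 0.015, or 0.072 with all 16 libraries in the fit).

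In lipid breakdown, 10 of 23 tested members were higher in dsInR1, 1 was lower and 12 did not pass, with a median log2 fold change of 0.81. In this list 47.8% were called, against 26.6% of all tested genes. Enzymes at each step of mitochondrial fatty acid oxidation were among the higher members. Hadh, the hydroxyacyl-CoA dehydrogenase, had 17.7, 14.9, 12.8 and 14.3 CPM in dsInR1, against 0.981, 1.35, 1.68 and 0.791 CPM in dsInR2 (log2 fold change 3.62, SE 0.26, adjusted p = 0.0002). The enoyl-CoA hydratase Echs1_0 was at 4.17 (adjusted p = 0.00038). Of the acyl-CoA dehydrogenases, which take the first step, the medium-chain entry C0J52_09993 was at 2.18 (adjusted p = 0.00026). Further members, named after their values were seen, were its neighbour C0J52_09994 at 2.89, ACADSB at 2.34, Acad9 at 1.46 and Acadvl at 0.91, and the thiolase ACAA2, which takes the last step, at 2.59 (adjusted p from 0.00064 to 0.0046).

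A second enoyl-CoA hydratase, Echs1_1, was the lower member, at 36.3 to 53.3 CPM in dsInR1 and 94.9 to 174 CPM in dsInR2 (-1.64, SE 0.22, adjusted p = 0.0016). Without dsInR2 library 4, 3 members were lower. Of the trifunctional enzyme, named after its values were seen, the beta subunit HADHB was higher (0.81, adjusted p = 0.019), and the alpha subunit HADHA did not pass (-0.12, adjusted p = 0.63). The lipase Lip3_9 had 792 to 4130 CPM in dsInR1 and 5.16 to 757 CPM in dsInR2 and did not pass (3.03, adjusted p = 0.085). It passed under DESeq2 (0.0183), with all 16 libraries in the fit (0.0298) and without dsInR2 library 7 (0.0291), where it was at 4.46.

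**Figure D3:**
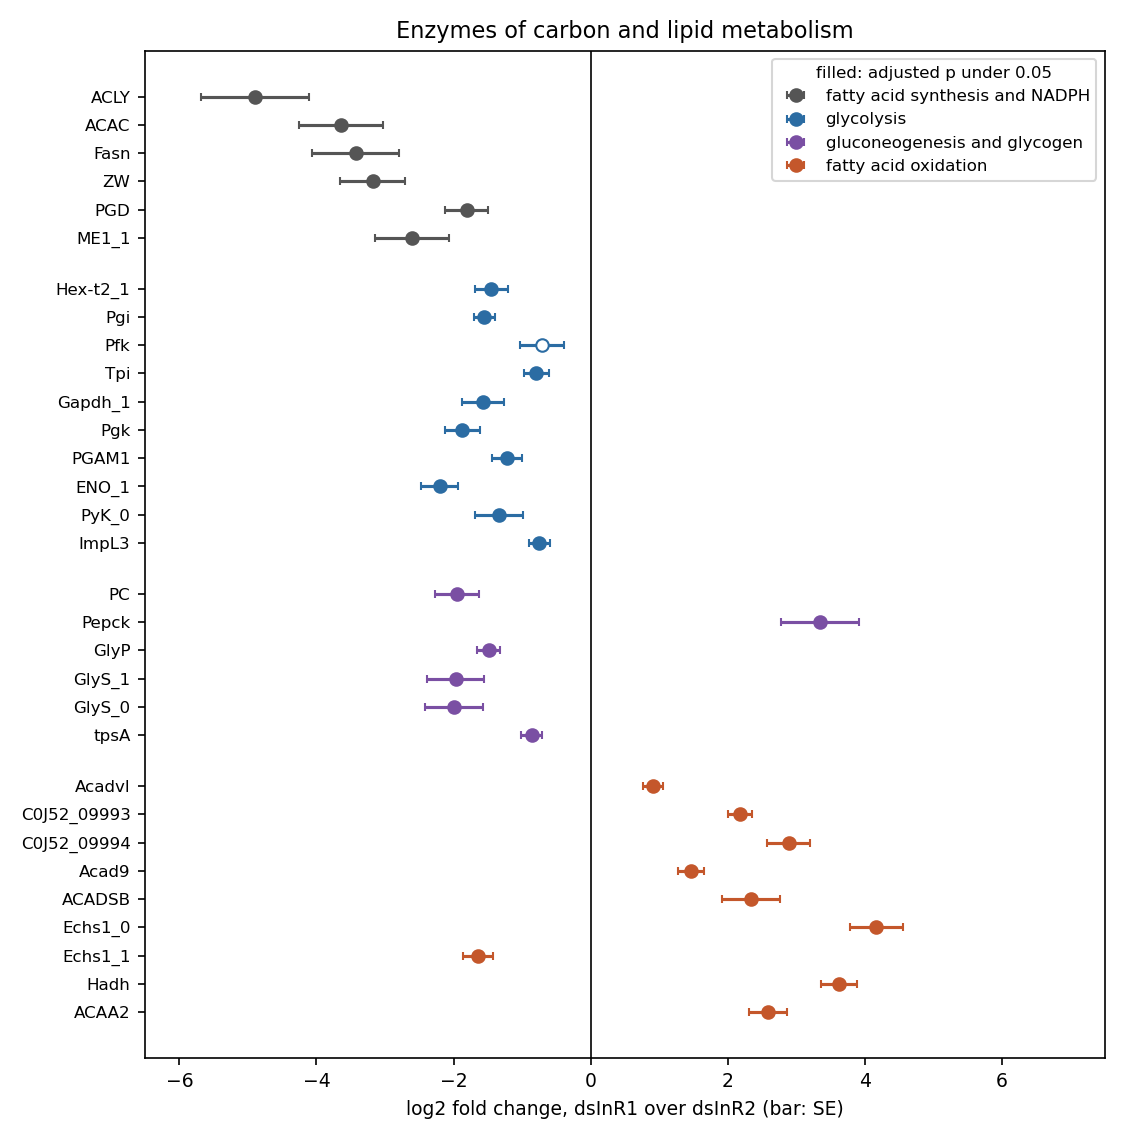
Log2 fold change of dsInR1 over dsInR2 with its SE for enzymes of fatty acid synthesis, glycolysis, gluconeogenesis and glycogen, and fatty acid oxidation, with open points for enzymes that did not pass. The enzymes shown are a selection, many of them chosen after their values were seen. Those plotted for synthesis and glycolysis lie below 0, and those for oxidation lie above 0 apart from Echs1_1. Pepck, at 3.35, is the only plotted enzyme of its group on the positive side. Members in the other direction, such as DGAT1 (1.31) and C0J52_12881 (2.0) of synthesis, are not plotted, nor is HADHA of oxidation, which did not pass.

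Glycolysis genes were lower than in dsInR2 almost throughout: 11 of 13 tested members were lower in dsInR1, 0 were higher, and the median log2 fold change was -1.33. In this list 84.6% were called, against 26.6% of all tested genes. Leaving out single libraries gave 10 to 12 lower members. Pgi, glucose-6-phosphate isomerase, had 87.9, 93.7, 81.9 and 87.6 CPM in dsInR1, against 311, 231, 248 and 240.0 CPM in dsInR2 (log2 fold change -1.55, SE 0.15, adjusted p = 0.00046). The enolase ENO_1 was at -2.20 (SE 0.27, adjusted p = 0.001). Scaled over all 16 libraries, Pgi averaged 81.9 CPM in dsInR1, 248 in dsInR2, 115 in dsInR3 and 72.4 in dsMock. On the same scale ENO_1 averaged 99.7 CPM in dsInR1, 474 in dsInR2, 150 in dsInR3 and 95.6 in dsMock. Named after their values were seen, the members down the pathway were the hexokinase Hex-t2_1 (-1.45), Tpi (-0.79), Gapdh_1 (-1.57), Pgk (-1.87), PGAM1 (-1.22), the pyruvate kinase PyK_0 (-1.33) and the lactate dehydrogenase ImpL3 (-0.75). The groups overlapped for PyK_0, which lost its call without dsInR1 libraries 6 or 7 or dsInR2 library 1, with adjusted p up to 0.0671. Pfk, the phosphofructokinase that commits sugar to glycolysis, did not pass (-0.71, adjusted p = 0.13) but did without dsInR2 library 4 (-0.94, adjusted p = 0.0317). Pgam2 did not pass (-0.17, adjusted p = 0.75).

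Of 9 gluconeogenesis, glycogen and trehalose enzymes, 66.7% were called, against 26.6% of all tested genes. They were lower in 5 of 9 cases and higher in 1, and the median of their log2 fold changes was -0.86. The exception was Pepck, the phosphoenolpyruvate carboxykinase that draws carbon out of the citric acid cycle toward glucose. It had 1290, 366, 590 and 1190 CPM in dsInR1, against 25.3, 95.4, 116 and 102 CPM in dsInR2 (log2 fold change 3.35, SE 0.57, adjusted p = 0.0038). PC, the pyruvate carboxylase one step before it, was lower in dsInR1, at 162 to 254 CPM in dsInR1 and 483 to 1280 CPM in dsInR2 (-1.95, SE 0.32, adjusted p = 0.0036). The enzymes of both glycogen breakdown and glycogen synthesis were lower: GlyP, glycogen phosphorylase, at -1.49 (adjusted p = 0.00086), and the glycogen synthase entries GlyS_1 at -1.97 and GlyS_0 at -1.99. The last 2 were named after their values were seen and were at -1.38 and -1.40 without dsInR2 library 1. Whether these 2 entries are separate genes was not tested. The trehalose phosphate synthase tpsA, also named after its values were seen, was at -0.86 (adjusted p = 0.0041). Without dsInR2 library 1, 2 members of the list were higher.

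Of 29 tested members of the pyruvate dehydrogenase and citric acid cycle list, 9 were lower in dsInR1, 3 were higher and 17 did not pass, and the median of their log2 fold changes was -0.44. The 41.4% called compares with 26.6% of all tested genes. The higher members alone were not above the 13.1% called higher over all tested genes. The count of lower members was 4 without dsInR1 library 5 and 5 without dsInR1 libraries 6 or 7, and 1 was higher without dsInR1 libraries 5 or 6 or dsInR2 libraries 1 or 8. MDH1_0, a malate dehydrogenase, was at -1.47 (adjusted p = 0.0036), and MDH2_2 at -1.34 (0.0067). PDHB_2, a subunit of pyruvate dehydrogenase named after its values were seen, was at -1.49 (0.0081). Pdk_0, a kinase known to switch pyruvate dehydrogenase off, was higher, with 35.8 to 41.8 CPM in dsInR1 and 14.2 to 25.2 CPM in dsInR2 (1.06, SE 0.18, adjusted p = 0.004). The NADP-dependent isocitrate dehydrogenase IDH2 was also higher (1.25, adjusted p = 0.021), a call lost without dsInR1 libraries 5 or 6 or dsInR2 libraries 1 or 8, with adjusted p up to 0.0634.

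Oxidative phosphorylation subunits were lower in 25 of 47 cases and higher in 0, with a median of -0.66, and 45 of the 47 had negative log2 fold changes. Called were 53.2%, against 26.6% of all tested genes. Without dsInR1 library 6, 15 were lower. The flavoprotein of complex II, sdha, had 57.9, 46.3, 39.4 and 37.6 CPM in dsInR1, against 225, 166, 172 and 163 CPM in dsInR2 (-2.0, SE 0.19, adjusted p = 0.00046). UQCRB of complex III was at -1.27 (adjusted p = 0.0013), and AT5G of the ATP synthase, named after its values were seen, at -1.17 (0.0052). ATP5B, also of the ATP synthase, did not pass (-0.72, adjusted p = 0.086) but did under DESeq2 (0.0324) and with all 16 libraries in the fit (0.0129).

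Mitochondrial ribosomal proteins were lower in 19 of 46 cases and higher in 0, with a median of -0.58. Called were 41.3%, against 26.6% of all tested genes. Without dsInR1 libraries 2, 5, 6 or 7 the lower members numbered 11, 9, 10 and 8, and without dsInR2 library 8 they numbered 11, and with at least 10 CPM required they numbered 9. DAP3 had 8.79, 9.97, 10.6 and 8.57 CPM in dsInR1, against 30.7, 31.7, 21.9 and 27 CPM in dsInR2 (-1.55, SE 0.16, adjusted p = 0.00057). The mitochondrial chaperonin Hsp60 was at -2.66 (SE 0.29, adjusted p = 0.00072) and the mitochondrial chaperone Trap1_0 at -1.12 (0.0011).

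Of 75 cytosolic ribosomal proteins, 7 were lower, 1 was higher and the median was -0.31. The share called was 10.7%, below the 26.6% of all tested genes. The count of lower members was 20 under DESeq2, 21 with all 16 libraries in the fit and 15 with at least 10 CPM required, and DESeq2 gave 2 higher. It was 1 without dsInR1 libraries 5 or 6, 2 without dsInR1 library 7, 3 without dsInR2 libraries 1 or 8, and 25 without dsInR2 library 7. Rpl27 was at -0.82 (adjusted p = 0.0075), and RPS27 at -1.14 (0.023), a call lost without dsInR1 libraries 5, 6 or 7 with adjusted p up to 0.0724. RPL4 was the higher member (1.5, adjusted p = 0.028), lost without any 1 dsInR1 library or dsInR2 library 8 with adjusted p up to 0.0714. RpLP0 did not pass (0.01, adjusted p = 0.97). Ribosome biogenesis genes were lower in 11 of 40 cases and higher in 0, with a median of -0.59. Their 27.5% called was near the 26.6% of all tested genes. All of these calls were lower, against 13.5% called lower over all tested genes. The lower members numbered 7 without dsInR1 libraries 5, 6 or 7, 17 without dsInR2 library 7, 18 under DESeq2 and 20 with all 16 libraries in the fit. NOP58, a core protein of the small nucleolar particles that modify ribosomal RNA, had 5.91, 6.98, 7.4 and 5.19 CPM in dsInR1, against 17.3, 40, 14.6 and 24.5 CPM in dsInR2 (-1.92, SE 0.32, adjusted p = 0.0035).

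Of 70 translation factors and tRNA synthetases, 7 were higher and 13 lower, with a median of -0.04. The share called was 28.6%, near the 26.6% of all tested genes. The synthetases EPRS (1.02, adjusted p = 0.0017) and NARS (1.11, 0.0051) were higher, while the glycine enzyme SYG (-1.06, 0.0032) and the mitochondrial elongation factor Tufm_0 (-0.99, 0.0036) were lower. The lower members numbered 3 without dsInR1 libraries 6 or 7, 5 without dsInR1 libraries 2 or 5 or dsInR2 library 4, 7 without dsInR2 library 1 and 8 with no filter, and the higher ones 4 without dsInR1 library 5.

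Machinery for protein export through the endoplasmic reticulum was higher in dsInR1, with 27 of 43 tested members higher, 1 lower and a median of 0.72. In this list 65.1% were called, against 26.6% of all tested genes. Without dsInR1 library 6, 17 were higher. SAR1A, the GTPase that starts the coating of vesicles leaving the endoplasmic reticulum, had 192, 304, 264 and 295 CPM in dsInR1, against 78.2, 65.7, 71 and 66.6 CPM in dsInR2 (log2 fold change 1.91, SE 0.18, adjusted p = 0.00045). SSR3, part of the complex that assists the translocon, was at 1.43 (adjusted p = 0.001). Named after their values were seen, the translocon subunit SEC61B was at 1.63 (0.0024), the folding chaperone calreticulin (crt) at 1.11 (0.013) and the disulfide isomerase Pdi at 1.24 (0.018), the last with an adjusted p of 0.0526 without dsInR1 library 6. Srp19 was the lower member (-0.70, adjusted p = 0.035), and its call was lost without any 1 of the 8 libraries other than dsInR2 library 7, with adjusted p up to 0.0863.

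Of 43 heat shock proteins and chaperonins tested, 8 were higher and 14 lower, with a median of -0.13. The 51.2% called compares with 26.6% of all tested genes. The higher members numbered 2 without dsInR1 libraries 5 or 6, 3 without dsInR1 library 7 and 4 without dsInR2 libraries 1, 4 or 7. They numbered 5 without dsInR2 library 8 and 3 with no filter. Hsp60 and Trap1_0, both mitochondrial, were lower, and Dnajc3, a chaperone of the endoplasmic reticulum, was higher (1.55, SE 0.25, adjusted p = 0.0031), as was the cytosolic DNAJC7 (0.91, adjusted p = 0.011). The cytosolic HSP7D_1 was at 0.17 and did not pass.

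Of 33 proteasome subunits, 7 were higher and 0 lower, with a median of 0.32, and 21.2% were called, against 26.6% of all tested genes. The count ran from 1 without dsInR1 library 6 to 10 without dsInR1 library 2, and was 2 without dsInR1 libraries 5 or 7 and 3 without dsInR2 library 8. The lid subunit Rpn7 was at 1.0 (adjusted p = 0.0072). Of 34 autophagy and lysosome genes, 7 were higher and 2 lower, with a median of 0.12 and 26.5% called, and 1 was lower without any 1 dsInR1 library or dsInR2 libraries 4 or 7. The lysosomal thioesterase Ppt2 was at 2.94 (adjusted p = 0.00056) and Beclin-1 (becn1), which starts autophagosome formation, at 0.83 (0.0017). The protease cathepsin B (CTSB, named after its values were seen) had 768, 827, 637 and 762 CPM in dsInR1, against 143, 188, 312 and 159 CPM in dsInR2 (1.90, adjusted p = 0.0018). The cathepsin L entry Cp1_2 was lower (-3.17, adjusted p = 0.011), at 0 to 0.738 CPM in dsInR1 and 2.22 to 8.26 CPM in dsInR2, and did not pass under limma-voom (0.053). The other lower member was Atg13, a subunit of the kinase complex that starts autophagy (-1.51, adjusted p = 0.042), a call lost under limma-voom, with no filter, without any 1 dsInR1 library and without dsInR2 libraries 4 or 7, with adjusted p up to 0.112.

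**Figure D4:**
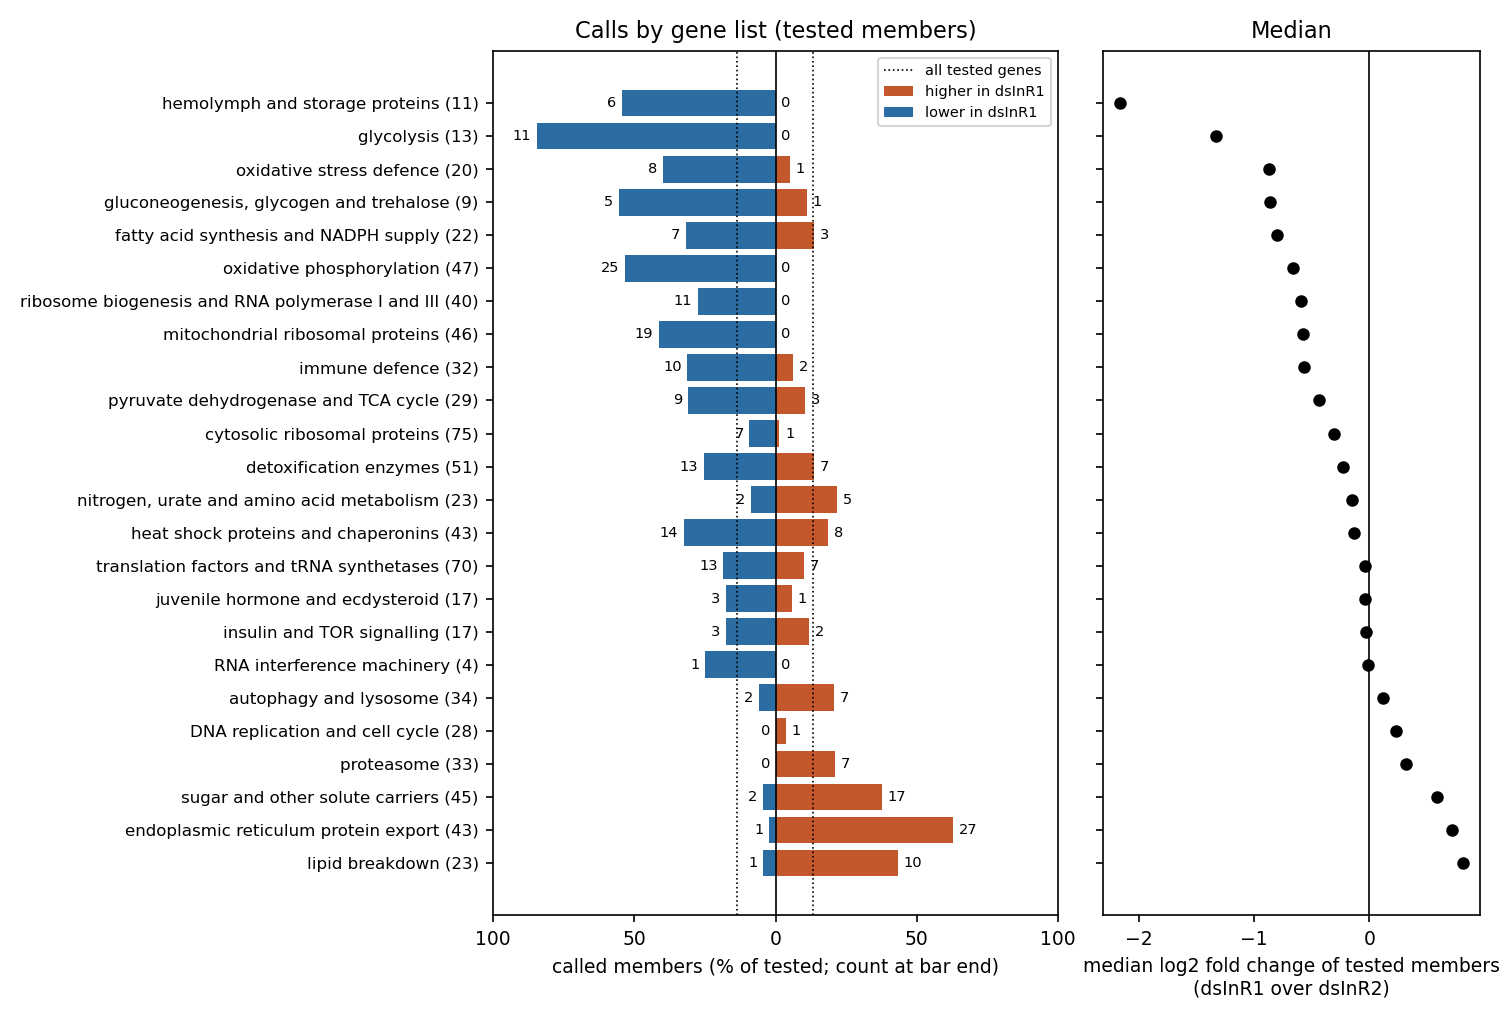
Left, percent of the tested members of each of 24 gene lists that were higher (right bars) or lower (left bars) in dsInR1, with counts at the bar ends and tested members in brackets; dotted lines mark 13.1% and 13.5%, the shares over all tested genes. Right, median log2 fold change of each list, from -2.16 for hemolymph and storage proteins to 0.81 for lipid breakdown.

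The gene Cat, a catalase that breaks down hydrogen peroxide, differed by 1030-fold. It had 7260, 12600, 13300 and 12000 CPM in dsInR1, against 11.6, 4.14, 25.1 and 3.05 CPM in dsInR2 (log2 fold change 10.01, SE 0.90, adjusted p = 0.00037), and was at 10.8 without dsInR2 library 7. A second catalase gene, cat_2, named after its values were seen, went the other way, at 351, 307, 268 and 310.0 CPM in dsInR1, against 1250, 3140, 2230 and 548 CPM in dsInR2 (-2.54, SE 0.48, adjusted p = 0.0059). The groups overlapped for neither gene.

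Most called genes of oxidative stress defence were lower, like cat_2. Of 20 tested members 8 were lower in dsInR1 and 1, Cat, was higher, with a median of -0.87. Leaving out single libraries left 8 or 9 lower. The superoxide dismutase Sod_1 had 13.6, 14.9, 14 and 12.4 CPM in dsInR1, against 126, 67.2, 76.5 and 76.6 CPM in dsInR2 (-2.66, SE 0.22, adjusted p = 0.00029). Sod_0 was at -2.09 (0.00073), and, named after their values were seen, the peroxiredoxins PRDX6_1 at -2.99 (0.00084) and Jafrac1 at -2.14 (0.0012).

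Of 51 detoxification enzymes, 7 were higher and 13 lower, with a median of -0.23, and 8 were lower under limma-voom. The share called was 39.2%, against 26.6% of all tested genes, while the higher members alone were near the 13.1% called higher over all tested genes. The lower members numbered 7 without dsInR1 libraries 5 or 7 and 8 without dsInR1 library 6 or dsInR2 library 1, and the higher ones 4 without dsInR1 library 7. The glutathione S-transferases Mgst1 (-1.75, adjusted p = 0.00087) and GstD1_5 (-4.09, 0.00086) were lower. GstD1_1 was at -5.02 (0.0068) and at -3.34 without dsInR2 library 7, which had 486 CPM where the other dsInR2 libraries had 35.2 to 67.2. GstD2_1 (-5.67, adjusted p = 0.038) was at -6.31 without dsInR1 library 2 and -5.04 without dsInR2 library 7, and lost its call without any 1 library other than dsInR1 library 5, with adjusted p up to 0.0803. The cytochrome P450 CYP4C1_1 was higher, at 60 to 185 CPM in dsInR1 and 1.56 to 4.95 CPM in dsInR2 (5.30, SE 0.54, adjusted p = 0.00054). Members of these families may share reads.

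Amino acid metabolism had 5 of 23 tested members higher and 2 lower in dsInR1, with a median of -0.15. The share called was 30.4%, near the 26.6% of all tested genes. Of these members, 3 were higher without dsInR1 libraries 5 or 6 or dsInR2 library 8, and 1 was lower without any 1 dsInR1 library or dsInR2 libraries 7 or 8. The aminotransferase gpt2, which links alanine to pyruvate, had 155, 178, 232 and 142 CPM in dsInR1, against 21.4, 19.2, 29.7 and 34.2 CPM in dsInR2 (2.76, SE 0.25, adjusted p = 0.00037). AGXT was at 1.87 (0.0054), and Oat, ornithine aminotransferase, was lower (-1.08, 0.0037). The uricase Uro, named after its values were seen, had 329, 807, 1040 and 286 CPM in dsInR1, against 2800, 2.38, 14.7 and 48.1 CPM in dsInR2. It did not pass (-0.21, adjusted p = 0.94), and without dsInR2 library 1 it was at 4.83 with an adjusted p of 0.0169.

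Sugar and other solute carriers were higher in 17 of 45 cases and lower in 2, with a median of 0.59, and 1 was lower without dsInR1 libraries 5 or 6 or dsInR2 libraries 1 or 4. Called were 42.2%, against 26.6% of all tested genes. The glucose transporter family member Slc2a1 had 334, 247, 605 and 292 CPM in dsInR1, against 14.3, 2.50, 6.93 and 3.35 CPM in dsInR2 (5.77, SE 0.65, adjusted p = 0.00074), and was at 6.44 without dsInR2 library 1. Of 9 trehalose transporter genes named Tret1, 2 were higher and 0 lower: Tret1_2 at 2.29 (0.00088) and Tret1_11, named after its values were seen, at 1.44 (0.0055). Trehalose is the main blood sugar of insects.

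Immune defence genes were lower in 10 of 32 cases and higher in 2, with a median of -0.57. They were higher in 0 cases without dsInR1 library 7 and in 1 without dsInR1 libraries 5 or 6 or dsInR2 libraries 1 or 4. Called were 37.5%, against 26.6% of all tested genes. All 10 lower genes were hemolymph lipopolysaccharide-binding proteins, lectins that recognise bacterial surfaces, of which 24 were tested and 1 was higher, with a median of -1.17. LPSBP_13 had 1.18, 3.12, 1.09 and 1.53 CPM in dsInR1, against 24.6, 18.7, 19.1 and 69.7 CPM in dsInR2 (-4.23, SE 0.57, adjusted p = 0.0015), and was at -3.58 without dsInR2 library 8. LPSBP_20 was at -3.02 (0.001). The higher member was LPSBP_2 (0.90, adjusted p = 0.018), which was lost without dsInR1 library 7 (0.0532). PGRP-LB_0, a peptidoglycan recognition protein, was the other higher member of the immune list (1.04, adjusted p = 0.032), lost without dsInR1 libraries 5, 6 or 7 or dsInR2 libraries 1 or 4 with adjusted p up to 0.0838.

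Among hormone genes, 1 of 17 was higher and 3 lower, with a median of -0.04, and 2 were higher without dsInR2 library 8. The lower members numbered 6 under DESeq2, with a median of -0.54, and 5 with all 16 libraries in the fit or at least 10 CPM required. The share called was 23.5%, near the 26.6% of all tested genes. CYP15A1_3, annotated as methyl farnesoate epoxidase, the enzyme known for the last step of juvenile hormone synthesis in the corpora allata, had 1850, 5270, 5700 and 3610 CPM in dsInR1, against 35.8, 158, 157 and 6.41 CPM in dsInR2 (5.52, SE 0.99, adjusted p = 0.0047). The next gene on the contig, the hypothetical C0J52_09985, went the other way, with 0 to 1.92 CPM in dsInR1 and 962, 5.74, 12.4 and 676 CPM in dsInR2 (-8.68, SE 1.90, adjusted p = 0.011), and was at -7.84 without dsInR2 library 1, and it did not pass under limma-voom (0.23). Farnesol dehydrogenase SDR-1_5 was lower (-1.25, adjusted p = 0.002). Eip74EF, an ecdysone-induced transcription factor named after its values were seen, was at -1.4 (0.012). Of 4 RNA interference genes, 1 was lower, the dsRNA-binding protein Prkra (-1.11, adjusted p = 0.018), lost without dsInR1 libraries 5 or 7 with adjusted p up to 0.0547. Of 28 DNA replication and cell cycle genes, 1 was higher, the cyclin CCND3 (1.82, adjusted p = 0.00091), and 0 were lower. The share called in this list was 3.57%, against 26.6% of all tested genes. Without dsInR1 library 2, 5 were higher and 1 lower, without dsInR2 library 1, 2 were higher, and without dsInR1 library 7 or dsInR2 library 7, 2 were lower.

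Genes without a product name included several that were all but absent from 1 group. C0J52_07182 had 11.7, 13.2, 14.5 and 19.2 CPM in dsInR1 and 0 reads in all 4 dsInR2 libraries, at least 471-fold higher against a floor of 3 counts over the dsInR2 group. C0J52_15013 had 0 reads in all dsInR1 libraries and 0.779 to 9.24 CPM in dsInR2, at least 102-fold lower in dsInR1 against a floor of 3 counts over the dsInR1 group. C0J52_25082 had 1.85 to 5.46 CPM in dsInR1, against 1700, 53.8, 95.2 and 2150 CPM in dsInR2 (-8.18, SE 1.38, adjusted p = 0.0037), and was at -7.51 without dsInR2 library 8. For both C0J52_25082 and C0J52_09985, dsInR2 libraries 1 and 8 lay far above dsInR2 libraries 4 and 7. C0J52_17450 had 92, 110.0, 115 and 106 CPM in dsInR1, against 2.37, 0.574, 1.64 and 1.66 CPM in dsInR2 (6.08, SE 0.4, adjusted p = 0.00019). Ddo, D-aspartate oxidase, was at 4.1 (adjusted p = 0.0002), and the zinc finger gene ZNF726 at -4.15 (0.014) and at -3.35 without dsInR2 library 8. Floors cover counting error only.

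Marker lists of other cell types showed the following. Gut and Malpighian tubule markers summed to 398 to 719 CPM in dsInR1 and 212 to 312 CPM in dsInR2, with 12 of 28 members at 0 reads in all 8 libraries. Of 11 tested members, 2 were higher, the maltases Mal-B1_3 (3.09, adjusted p = 0.0025) and Mal-B2_2 (3.12, 0.00087). The share called was 18.2%, against 26.6% of all tested genes, and 4 of the 11 had negative log2 fold changes. Their median was 0.61, but -0.07 under DESeq2 and -0.35 with at least 10 CPM required. The 5 tested genes named Maltase 1 had a median of -0.69. The part of gut tissue in the other differences was not tested. Muscle markers summed to 96.5 to 212 CPM in dsInR1 and 145 to 327 CPM in dsInR2, with 2 of 15 lower, the titin entries sls_1 (adjusted p = 0.045) and sls_0 (0.048). Of the 15, 13 had negative log2 fold changes, and their median was -0.6, or -0.86 to -0.24 with single libraries left out. Without 1 library, at most 1 muscle marker passed, and 0 passed without dsInR1 libraries 5, 6 or 7 or dsInR2 libraries 1, 7 or 8. Hemocyte markers summed to 159 to 225 CPM in dsInR1 and 148 to 417 CPM in dsInR2 with 0 of 4 called, and nervous tissue markers to 17.7 to 19.9 CPM in dsInR1 and 16.4 to 19.5 CPM in dsInR2 with 0 of 9 called. Ovary and germline markers summed to 154 to 180 CPM in dsInR1 and 137 to 185 CPM in dsInR2, with vas_0 lower (-1.63, adjusted p = 0.015, or 0.0521 without dsInR1 library 6) among 7 tested. Without dsInR2 library 4, 2 ovary and germline markers were higher, and DESeq2 gave 2 lower. Epidermis and trachea markers summed to 43.6 to 91.4 CPM in dsInR1 and 53.3 to 110.0 CPM in dsInR2, with CUO7_0 (-3.67, adjusted p = 0.014) and Chia_0 (-3.43, 0.0096) lower among 11 tested and 39 of 66 members at 0 reads in all 8 libraries. CUO7_0 was at -4.38 without dsInR1 library 2 and did not pass under limma-voom (0.117), and Chia_0 at -2.60 without dsInR2 library 4. The shares called were 13.3% for muscle, 14.3% for ovary and germline and 18.2% for epidermis and trachea, against 26.6% of all tested genes. The part of these tissues in the other differences was not tested.

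Levels in all groups are set side by side for a few genes. ACLY averaged 37.2 ± 1.92 CPM in dsInR1, 1150.0 ± 1230.0 CPM in dsInR2, 84.1 ± 32 CPM in dsInR3 and 40.6 ± 8.08 CPM in dsMock (SD, n = 4 each, scaled over 16 libraries). Cat averaged 10500 ± 2550 CPM in dsInR1, 10.5 ± 9.7 CPM in dsInR2, 6810.0 ± 3010.0 CPM in dsInR3 and 9770.0 ± 1370.0 CPM in dsMock. CRPI_2 averaged 2950 ± 919 CPM in dsInR1, 82100 ± 32200 CPM in dsInR2, 7850.0 ± 5220.0 CPM in dsInR3 and 3810 ± 1020 CPM in dsMock.

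**Figure D5:**
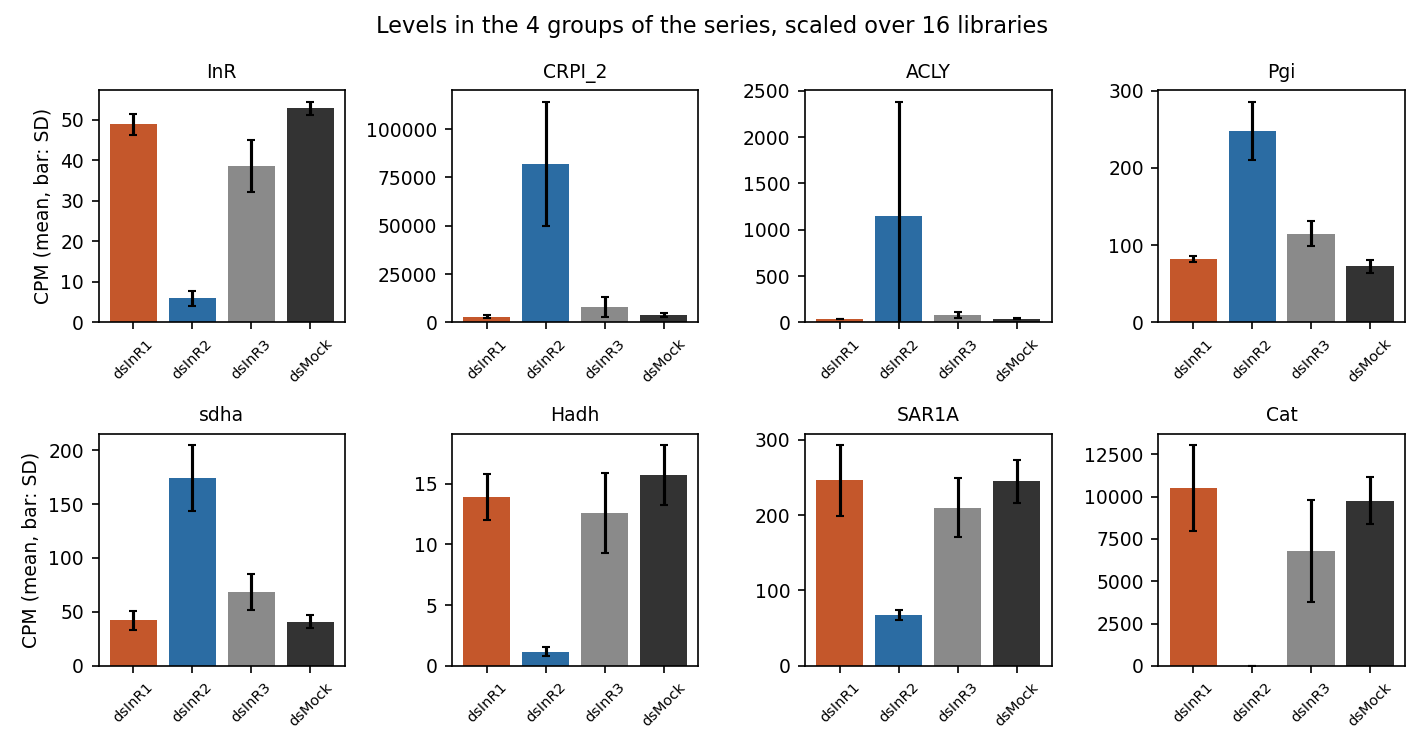
Mean CPM with SD over the 4 libraries of each group for 8 genes, scaled over all 16 libraries; the lower arm of the ACLY error bar in dsInR2 reaches below 0 and is clipped. InR averages 48.9 CPM in dsInR1, 5.9 CPM in dsInR2, 38.5 CPM in dsInR3 and 52.8 CPM in dsMock, and in each panel the dsInR1 mean is nearer to that of dsMock than the dsInR2 mean is.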

How the data were processed

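RNA-seq libraries of fat body (4 per group) were analysed from the deposited table of read counts per gene, made by the authors with FastQC, Trimmomatic, HISAT2 and StringTie per the submitters' processing notes, on build Bger_1.1; versions, the handling of multi-mapping reads and the use of strand are not given. Column names give the group but not the replicate, so each column was mapped to a group alone, and library numbers in the text are those of the column names. The 4 control columns were taken as dsMock by elimination. A further 32 columns of per-library values (FPKM and TPM) were not used, so levels are not compared between genes. All 28676 locus tags matched RefSeq, which gave positions.

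Counts were scaled by TMM, filtered with filterByExpr and tested with edgeR 4.0.16 (quasi-likelihood, Benjamini-Hochberg over 9918 genes, threshold 0.05) in R 4.3.3. CPM uses TMM-scaled totals. Exact permutation tests used SciPy 1.17.1. Alternatives were DESeq2 1.42.0, limma-voom 3.58.1, other scalings and filters, all 16 libraries in the fit, glmTreat and each library left out. The procedure was tested on simulated data with few changed genes. There edgeR called 7.37% of genes changed by a log2 fold change of 1 and 76.5% of those changed by 2, with 2 false calls. DESeq2 called 29% and 89%, with 25 false calls. A gene that did not pass may therefore still differ by 2-fold. These rates need not hold where more genes change. The contrast, gene lists and rules were chosen with earlier results of these data known. Named by rule are InR and called insulin and TOR genes, the 5 most abundant genes per group, the 8 informative and 3 hypothetical genes of largest change per direction (at least 10 CPM, groups not overlapping), 2 called members per list and direction with the most abundant member not called, and 2 genes per direction with 0 reads in 1 group; others are marked as named after their values were seen.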

Additional observations from a re-analysis of the deposited data

Results flagged for a closer look

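Within a group, a library was singled out where its gap to the nearest other library, divided by the range of the group, passed Dixon's critical value for 4 libraries at the 95% level. This held for 29 of 336 pairs of a named gene and a group, 10 in dsInR1 and 19 in dsInR2, and chance alone singles out about 1 in 20 groups. All values are CPM. Library 2 of dsInR1 was the highest of its group for ACAC (391), Jafrac1 (143), vas_0 (6.79) and EN03 (40.2). Library 2 of dsInR1 was the lowest of its group for SSR3 (209) and Srp19 (8.93). Library 5 of dsInR1 was the lowest of its group for CRPI_1 (174). Library 6 of dsInR1 was the lowest of its group for Siwi (106). Library 7 of dsInR1 was the highest of its group for C0J52_21567 (12.8). Library 7 of dsInR1 was the lowest of its group for Pgk (68.2). Library 1 of dsInR2 was the highest of its group for PDHB_2 (283), sdha (225), Non1 (127), Sod_1 (126), Sod_0 (12.4), Gs2 (817) and Uro (2800.0). Library 1 of dsInR2 was the lowest of its group for C0J52_12881 (0.31). Library 4 of dsInR2 was the highest of its group for Jafrac1 (731) and LPSBP_20 (20.1). Library 4 of dsInR2 was the lowest of its group for IGFBP (143). Library 7 of dsInR2 was the highest of its group for GstD1_1 (486) and CYP4C1_1 (4.95). Library 7 of dsInR2 was the lowest of its group for Rpl27 (124). Library 8 of dsInR2 was the highest of its group for LPSBP_13 (69.7), SDR-1_1 (12) and TRYP2 (138). Library 8 of dsInR2 was the lowest of its group for ME1_1 (308) and tpsA (37.9).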

How the results depend on the processing

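No paired analysis was possible because the columns carry library numbers, of which dsInR1 and dsInR2 share only 7, and not the replicate numbers of the labels. The counts of genes higher and lower in dsInR1 were 1304 and 1335 and stayed within 1.5 times of that under DESeq2 (1464 and 1594), limma-voom (1301 and 1166), RLE and upper-quartile scaling, either filter, the most abundant gene left out and all 16 libraries in the fit (1503 and 1770). Against a 2-fold minimum (glmTreat) they were 167 and 158. Leaving out single libraries gave 854 to 1225 higher and 825 to 1349 lower, both lowest without dsInR1 library 6. InR stayed between 2.89 and 3.25 under these settings and was at 2.45 without TMM scaling (exact permutation p = 0.0286). Of 135 called genes named by rule or after their values were seen, 111 kept the call in all fits with a library left out and 55 passed the 2-fold minimum. Counts of list members moved by over 1.5 times in further cases. With at least 10 CPM required, 11 solute carriers were higher and 1 lower, 5 immune genes were lower, 1 autophagy, 1 amino acid and 0 RNA interference, ovary and epidermis markers were lower, and 0 cell cycle genes and 1 gut marker were higher. With no filter, 4 proteasome subunits and 3 amino acid genes were higher, and 1 autophagy gene and 0 muscle markers were lower. Under limma-voom 1 amino acid gene, 1 muscle marker, 0 autophagy and 0 protein export genes were lower. DESeq2 gave 2 cell cycle genes higher and 1 gut marker lower, and all 16 libraries 2 cell cycle genes higher, with 1 cell cycle gene, 1 proteasome subunit, 1 gut marker and 1 muscle marker lower. RLE and upper-quartile scaling left 1 muscle marker lower. Signs turned for 5 genes that had not passed. Uro was at 3.49 under limma-voom and -0.66 to 4.83 with single libraries left out, highest without dsInR2 library 1. With single libraries left out, PGM2 was at -0.27 to 0.13, path_1 at -0.1 to 0.57 and HSP7D_1 at -0.04 to 0.39. RpLP0 was at -0.0021 under DESeq2, -0.03 with all 16 libraries, -0.002 with at least 10 CPM, -0.02 without the most abundant gene, -0.02 with no filter, -0.01 under upper-quartile scaling and -0.08 to 0.08 with libraries left out. The causes were not tested. The replicate number limits the precision, and genes of few reads were not tested.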
